A study of Mus musculus with 12 samples.

Results

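Mtap1b, Gprasp2 and Diras2, 3 genes best known from neurons, were described over 12 one-colour microarrays of mouse aorta, together with Th, Dbh, Nefl, Nefm and Sox10 as markers of perivascular nerves and Schwann cells. The members are the 8 genes with these names among the 34797 gene names on the array, and they had 9 of its 55681 probe designs. Mtap1b, Gprasp2 and Diras2 were chosen by their measured values: Mtap1b for its fall at day 3 in WT aorta, Gprasp2 for its fall at day 3 under the smSocs3-KO label, and Diras2 for its lower signal under that label at day 3. The values in those comparisons, and in others that share their arrays with them, are therefore given as descriptions with no test. The 5 nerve and Schwann cell markers were chosen by their known cell type.

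The study asked how loss of Socs3, a feedback inhibitor of Stat3 signalling, in smooth muscle cells alters the aorta in a model of aortic dissection. All mice were male, of the mixed strain background 129S5/SvEvBrd, C57BL6 and SJL, and homozygous for a floxed Socs3 allele, and the age is not given in the labels. The smSocs3-KO mice also carried SM22-Cre, a Cre recombinase driven by a smooth muscle promoter. The gene could thus be lost in cells where that promoter is or has been active, whereas WT mice were littermates with no Cre. There were 3 arrays from each of 4 groups: WT before challenge, WT at day 3, smSocs3-KO before challenge and smSocs3-KO at day 3. The challenge was 3 days of BAPN (150 mg/kg/day), an inhibitor of the enzymes that crosslink collagen and elastin, with the pressor hormone AngII (1000 ng/kg/min), both from osmotic minipumps. The mean log2 signal of Socs3 itself was 0.30 in WT and 0.78 in smSocs3-KO aorta before challenge, and 1.54 and 3.04 at day 3, so it was not lower under the deletion label, and these arrays are called the arrays labelled smSocs3-KO.

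MAP1B, the product of Mtap1b (now Map1b), binds microtubules and is abundant in growing axons. GPRASP2 belongs to the GASP proteins, which bind the tails of G protein-coupled receptors and take part in the sorting of these receptors after they are internalised. DIRAS2 is a small GTPase of the Ras superfamily found mainly in the brain. The aorta is supplied by sympathetic nerves that run in the adventitia: their axons come from cell bodies in ganglia outside the vessel wall and are wrapped by Schwann cells. Tyrosine hydroxylase (Th) is the rate-limiting enzyme of catecholamine synthesis, dopamine beta-hydroxylase (Dbh) makes noradrenaline from dopamine, Nefl and Nefm encode neurofilament subunits, and Sox10 is a transcription factor of the neural crest and of Schwann cells.

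The probes that measured the 3 neural genes are shown because Mtap1b was read by a pair of probes that differed in the size of their change. The first 30 of the 60 bases of each probe, 5′ to 3′, are printed below its name, with no part marked.
Mtap1b probe 1: tctacagagactaaatcttagcgataatcc
Mtap1b probe 2: ccttcctttgtcttgcattggctattttaa
Gprasp2 probe: taaacatgtggttctctgcttgagtctggg
Gprasp1 probe: ccttctaaatgttgttctcgtgtatatttg
Diras2 probe: ggcagcgatggccccagtccatggaaccag
On the mm9 build of the array files, Mtap1b probe 1 lies at chr13:100192506-100192565 and Mtap1b probe 2 at chr13:100194409-100194468. The Gprasp2 probe lies at chrX:132379206-132379265, the Gprasp1 probe at chrX:132337941-132338000 and the Diras2 probe at chr13:52599744-52599802. Whether these positions are coding or untranslated was not looked up, since no annotation of that build was used here.

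The 250 bases upstream of the annotated start are shown for the 3 neural genes, and for Gprasp1, the paralogue of Gprasp2 whose signal moved like it. They come from RefSeq (GRCm38.p6), whose promoter table holds 5 of the 8 members. Both strands were searched for a STAT site (TTCNNNGAA), an AP-1 site (TGANTCA), a cyclic AMP response element (TGACGTCA) and a GC box (GGGCGG), and the matches, none of which overlap, are in capitals.
Map1b: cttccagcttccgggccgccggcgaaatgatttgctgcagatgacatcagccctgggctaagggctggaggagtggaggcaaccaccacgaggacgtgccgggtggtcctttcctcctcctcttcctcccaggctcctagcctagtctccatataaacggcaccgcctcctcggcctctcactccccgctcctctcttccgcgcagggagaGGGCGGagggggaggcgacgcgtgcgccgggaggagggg
Gprasp2: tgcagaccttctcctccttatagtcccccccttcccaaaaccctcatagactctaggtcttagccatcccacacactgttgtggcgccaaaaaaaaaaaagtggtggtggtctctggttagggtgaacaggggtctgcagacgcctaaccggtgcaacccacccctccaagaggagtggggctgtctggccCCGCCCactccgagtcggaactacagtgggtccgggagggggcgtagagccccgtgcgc
Gprasp1: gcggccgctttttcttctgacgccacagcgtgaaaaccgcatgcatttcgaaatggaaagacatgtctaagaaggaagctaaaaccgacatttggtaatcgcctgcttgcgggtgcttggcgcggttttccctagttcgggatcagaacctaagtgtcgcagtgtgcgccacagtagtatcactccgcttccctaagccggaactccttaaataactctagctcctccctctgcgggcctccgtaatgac
Diras2: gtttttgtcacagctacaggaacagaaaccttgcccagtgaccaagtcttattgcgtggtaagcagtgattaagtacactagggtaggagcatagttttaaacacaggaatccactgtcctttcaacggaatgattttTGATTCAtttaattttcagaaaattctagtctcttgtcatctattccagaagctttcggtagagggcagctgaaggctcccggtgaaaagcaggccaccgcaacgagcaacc
The Map1b window (chr13:99516603-99516852, minus strand) has a GC content of 66.4%, 19 CpG sites and a GC box from 39 to 34 bases before the start. The Gprasp2 window (chrX:135838784-135839033, plus strand) has a GC content of 59.6%, 10 CpG sites and a GC box on the other strand from 59 to 54 bases before the start. In the Gprasp1 window (chrX:135742442-135742691, plus strand) the GC content is 52.4%, there are 18 CpG sites and none of the 4 motifs. The Diras2 window (chr13:52530837-52531086, minus strand) has a GC content of 44.0%, 6 CpG sites and an AP-1 match, TGATTCA, from 112 to 106 bases before the start. Of 32851 RefSeq windows of the same length, 32.74% hold the GC box, 6.75% the AP-1 site, 7.02% the STAT site and 1.55% the cyclic AMP element, and their median GC content is 52.4% with 6 CpG sites. The matches are letters in a sequence, and binding was not measured.

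Signals are given as log2 of the processed signal minus the 75th percentile of the same array, so equal steps are equal folds and a value below 0 is a signal under that percentile. Values are compared between arrays for 1 probe and never between probes. Only the summed signals of gene lists add probes, on the linear scale, so a sum follows mostly its brightest probes. A gene was tested if the scanner software had marked its brightest probe as well above background in all 3 replicates of any group, and 22758 genes met this. Mtap1b, Gprasp2, Diras2, Th and Sox10 were tested, with all 5 well above background on all 12 arrays, whereas Dbh, Nefl and Nefm were not well above background on any. Arrays are listed in the order of their replicate numbers. Where a group is high or low in whole aortic RNA, fewer cells of a type and less RNA per cell cannot be told apart.

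**Figure D1:**
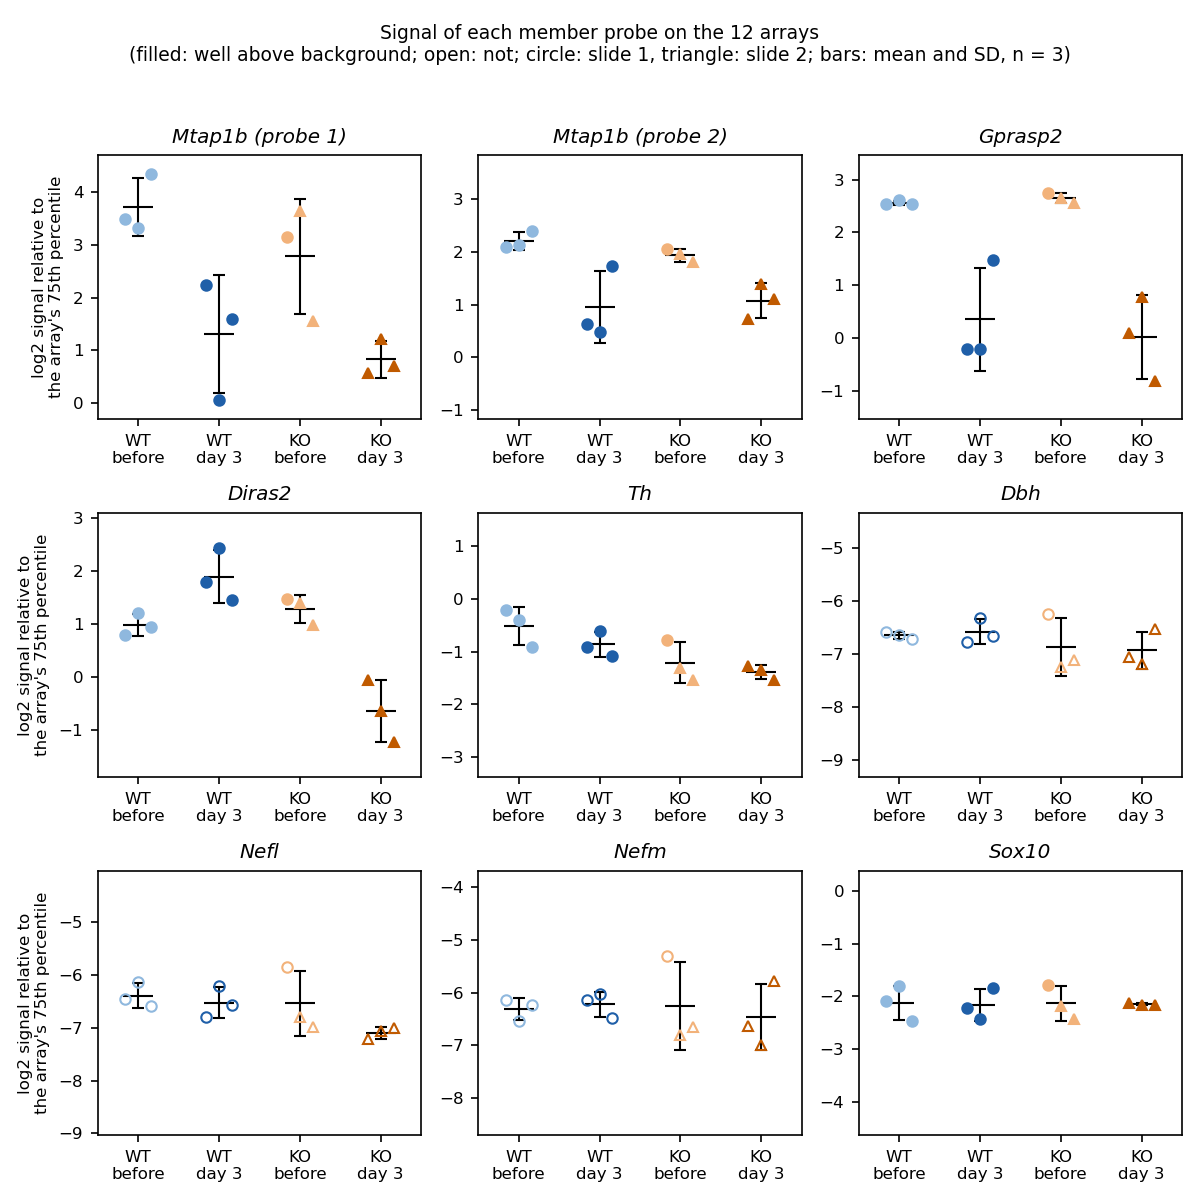
Log2 signal relative to the 75th percentile of the array (vertical axis) of the 9 probes of the 8 members in the 4 groups. Each symbol is 1 array, filled where the probe was well above background and open where it was not, circles for slide 1 and triangles for slide 2, with the group mean and SD (n = 3) as bars. Mtap1b and Gprasp2 were lower at day 3 under both labels, Diras2 was low in smSocs3-KO at day 3 alone, Th and Sox10 stayed in narrow ranges, and Dbh, Nefl and Nefm had only open symbols.

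The Mtap1b signal was lower at day 3 than before challenge under both genotype labels. On its brighter probe, probe 1, the log2 signals were 3.49, 3.32 and 4.33 in WT before challenge and 2.24, 0.07 and 1.60 in WT at day 3. On the arrays labelled smSocs3-KO they were 3.15, 3.63 and 1.56 before challenge and 0.57, 1.22 and 0.70 at day 3. Under neither label did the groups overlap, and at day 3 a single WT array, replicate 3, lay below the lowest smSocs3-KO array.

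The WT difference that chose Mtap1b was -2.41 (SE 0.61), a signal 5.31-fold lower at day 3. Under the smSocs3-KO label, which did not choose it, the log2 difference was -1.95 (95% interval -3.29 to -0.61), 3.86-fold lower, with a limma adjusted p of 0.098. This difference did not pass the threshold, although day 3 was lower than before in 3 of 3 arrays. A block for the slide gave -1.77 with a limma adjusted p of 0.247. The mean of both challenge responses was -2.18 (SE 0.43).

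Probe 2 of Mtap1b moved in the same direction by less. It read 2.10, 2.12 and 2.40 in WT before challenge and 0.64, 0.47 and 1.74 at day 3. The values under the smSocs3-KO label were 2.05, 1.95 and 1.80 before and 0.74, 1.38 and 1.11 at day 3. Its groups did not overlap under either label, and its log2 differences were -1.25 (SE 0.30) in WT and -0.86 (SE 0.30) under the smSocs3-KO label, the second with a limma adjusted p of 0.129 in a fit of all kept probes. Over the 12 arrays the probes had a Pearson r of 0.825 and a Spearman rho of 0.839. Between the genotype labels, probe 1 differed by -0.94 (smSocs3-KO minus WT, 95% interval -2.27 to 0.40) before challenge, with a limma adjusted p of 0.9999, and by -0.48 (-1.81 to 0.86) at day 3, with overlapping groups at both times. On probe 2 the difference was -0.27 (-0.94 to 0.39, limma adjusted p = 0.9999) before challenge, where the 3 smSocs3-KO arrays lay below the 3 WT arrays, and 0.13 (-0.54 to 0.79) at day 3, where the groups overlapped.

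Of the 11 genes of the microtubule-associated protein family that were listed with Mtap1b, all were tested. In the mean of both challenge responses, Mtap1a, which encodes the sister protein of MAP1B, fell by 1.02 on the log2 scale (SE 0.27, limma adjusted p = 0.0231), and Mapt, the gene of the axonal protein tau, fell by 1.14 (SE 0.37, 0.0477). The call was lost in 4 of 23 alternatives for Mtap1a and in 17 of 23 for Mapt, with an adjusted p of up to 0.211. On its brightest probe neither passed the threshold under 1 label alone. In the fit of all kept probes a dimmer Mapt probe was at -1.38 in the mean response (limma adjusted p = 0.0078) and at -1.55 under the smSocs3-KO label (0.0497). The mean Mtap1a signal was 2.03 before and 1.27 at day 3 in WT, where the arrays overlapped, and 1.93 and 0.64 under the smSocs3-KO label, where they did not. The other 8 were not called in any comparison on their brightest probe, whereas a dimmer Mtap7 probe was at -0.68 in the mean response (limma adjusted p = 0.0254). Their mean challenge responses ran from -0.70 (Mtap7, limma adjusted p = 0.0507) to 0.72 (Mtap2, 0.247), and Map1lc3a, a marker of autophagosomes, was at 0.48 (0.330). Mtap4 (-0.10), Mtap6 (0.03), Map1s (-0.09), Mtap9 (-0.02) and Map1lc3b (-0.19) were close to the median of all genes, -0.08. Beside Mtap1b, whose choice fixed its direction here, 2 of 10 genes were called lower and 0 higher, and of all genes tested 10.4% were called lower and 12.5% higher in this comparison, 22.9% in all. The median of the family, -0.10, was near that of all genes.

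Gprasp2 was lower at day 3 in both genotypes, and it was the most even of the members before challenge. Its log2 signals were 2.54, 2.60 and 2.54 in WT before challenge and 2.75, 2.65 and 2.56 under the smSocs3-KO label. At day 3 they were -0.21, -0.21 and 1.47 in WT and 0.09, 0.77 and -0.82 under the smSocs3-KO label. The 6 arrays before challenge spanned 2.54 to 2.75 and the 6 arrays at day 3 lay between -0.82 and 1.47, so the times did not overlap under either label and the spread was wider at day 3.

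In WT aorta, a comparison that did not choose it, Gprasp2 fell by 2.21 on the log2 scale (SE 0.46, limma adjusted p = 0.0347), which is 4.62-fold, in 3 of 3 arrays. This call was lost in 9 of 24 alternatives, 6 of which left out 1 array: any of the 3 WT arrays before challenge, replicate 1 or 3 of WT at day 3, or replicate 4 of smSocs3-KO before challenge. The adjusted p ran from 0.00140 to 0.159 and the log2 difference from -2.77 to -1.93. The array that moved it most was replicate 4 of WT at day 3, whose omission gave -2.77. The fall under the smSocs3-KO label, which chose it, was -2.64 (SE 0.46), or 6.24-fold. It was -2.59 among the smSocs3-KO arrays that shared slide 2. Between the genotype labels Gprasp2 differed by 0.09 (95% interval -0.92 to 1.10) before challenge and by -0.34 (-1.35 to 0.67) at day 3, both within the spread of the arrays.

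Gprasp2 belongs to a family of GASP and armadillo-repeat proteins, most of whose genes lie together on the X chromosome. All 10 listed genes were tested. Gprasp1, whose protein directs some receptors to lysosomes, had log2 signals from 3.13 to 3.19 in WT before challenge and from 0.85 to 2.05 at day 3. Under the smSocs3-KO label it ranged from 3.09 to 3.26 before and from 0.90 to 1.72 at day 3, again with no overlap. Gprasp1 fell by 1.90 in WT (SE 0.31, limma adjusted p = 0.0304) and by 1.90 under the smSocs3-KO label (SE 0.31, 0.0204). The call was lost in 9 of 24 alternatives in WT, with the same arrays left out as for Gprasp2, and in 6 of 24 under the smSocs3-KO label, where they included replicates 1 and 3 before challenge and replicates 2 and 5 at day 3, and the mean of both responses, with a limma adjusted p of 0.00365, was called in 23 of 23. Over the 12 arrays the Pearson r of Gprasp2 and Gprasp1 was 0.971 and the Spearman rho 0.937, given as a description.

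The 8 other genes of the family were not called in any comparison. In WT, Armcx6 (0.82), Armcx3 (0.67), Armcx4 (0.39), Armcx2 (0.16), Armcx1 (0.04) and Armc10 (0.01) had positive log2 differences, and Bhlhb9 (-0.11) and Armcx5 (-0.24) negative ones, with limma adjusted p from 0.0954 to 0.973. Under the smSocs3-KO label they ran from -0.73 (Bhlhb9, limma adjusted p = 0.149) to 0.20 (Armcx6). Beside Gprasp2, 1 of 9 genes, Gprasp1, was called lower under each label, and of all genes 1.17% were called lower in WT and 0.839% under the smSocs3-KO label. The family median was 0.02 in WT and -0.31 under the smSocs3-KO label, against -0.04 and -0.11 for all genes. Bhlhb9 also encodes a GASP protein, GPRASP3, so not all GASP genes were called, and the difference between the GASP and ARMCX genes was not tested.

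**Figure D2:**
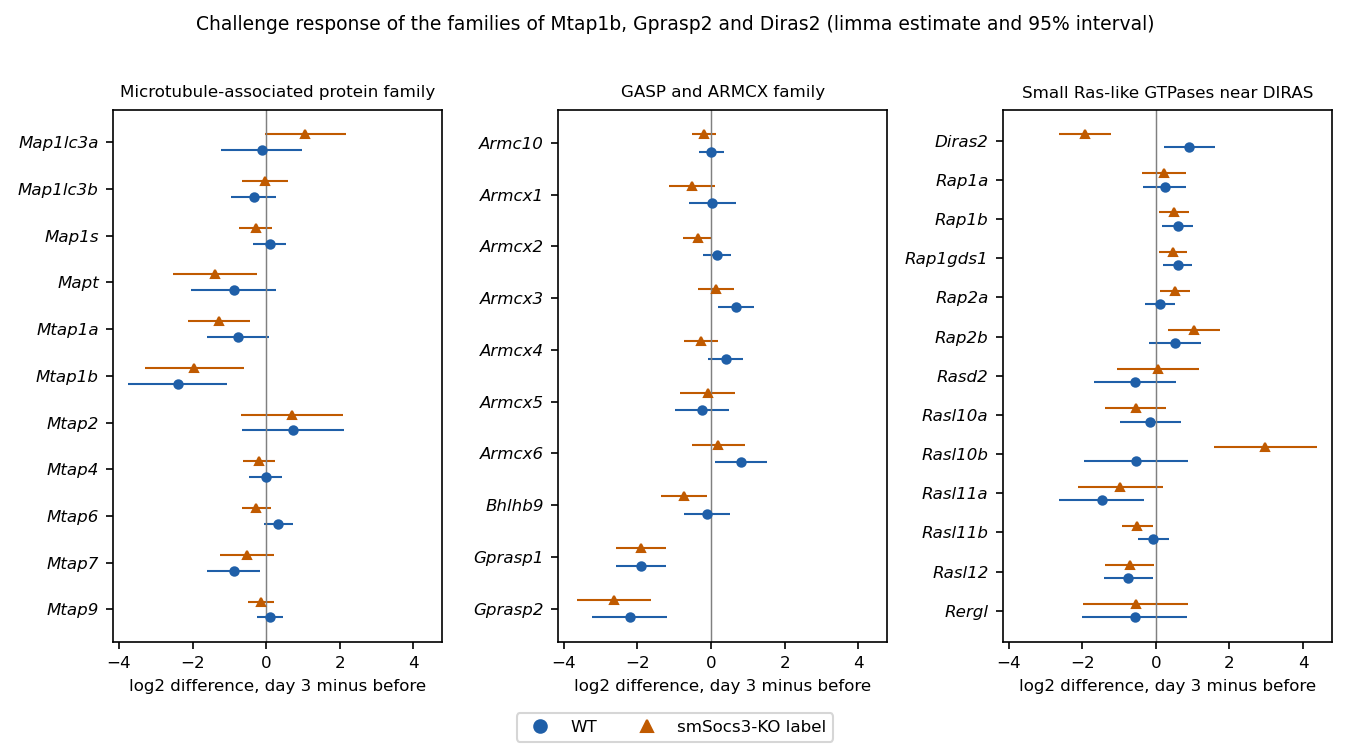
Challenge response (horizontal axis, log2 difference of day 3 minus before, with 95% limma intervals) of the tested genes of the microtubule-associated protein, GASP and ARMCX, and DIRAS-related families, circles for WT and triangles for the smSocs3-KO label. Gprasp1 and Gprasp2 lie near -2 under both labels and apart from the 8 others of their family, and Diras2 is at 0.91 in WT and at -1.93 under the smSocs3-KO label.

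Diras2 moved in opposite directions with challenge under the 2 labels. Its log2 signals were 0.79, 1.22 and 0.94 in WT before challenge and 1.80, 2.44 and 1.46 in WT at day 3. On the arrays labelled smSocs3-KO they were 1.48, 1.40 and 0.97 before challenge and -0.07, -0.65 and -1.23 at day 3. The 3 WT arrays at day 3 were above all 3 before, and the 3 smSocs3-KO arrays at day 3 were the lowest of the 12.

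The differences were 0.91 (SE 0.32), or 1.88-fold, in WT and -1.93 (SE 0.32), 3.82-fold lower, under the smSocs3-KO label. At day 3, the comparison that chose it, smSocs3-KO minus WT was -2.55 (SE 0.32), or 5.85-fold lower. The difference of both challenge responses, -2.85 (SE 0.45), rests on the same arrays and is also a description. In all, 98 of the 22758 genes (0.431%) moved in opposite directions with no overlap under either label, and 56 of these (0.246%) did so as Diras2, higher in WT and lower in smSocs3-KO. Before challenge, which did not choose it, Diras2 differed between the labels by 0.30 (SE 0.32), with a limma adjusted p of 0.9999 and overlapping groups.

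All 6 WT arrays and 1 smSocs3-KO array before challenge shared slide 1, and the other 5 smSocs3-KO arrays shared slide 2. The Diras2 signal before challenge under the smSocs3-KO label was 1.48 on slide 1 and 1.18 on average on slide 2. Within slide 2, day 3 minus before was -1.83. A block for the slide left -2.25 (SE 0.59) at day 3, and the part of the slide in it cannot be fully told apart from the label, since no slide held day 3 arrays of both genotypes.

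Among 17 genes listed near DIRAS, all of small Ras-like GTPases except Rap1gds1, 13 were tested, and Diras1, Rerg, Rasd1 and Rap2c were not. No other gene of the list was called with the pattern of Diras2. Rasl10b was the reverse of it under the smSocs3-KO label, where the log2 signal averaged -4.20 before and -1.23 at day 3. It was well above background on 3 of 3 arrays of smSocs3-KO at day 3 and on 1 of 3 in each other group, so the size of a difference rests on signals at background. The log2 difference was 2.98 (SE 0.64) with challenge and 3.36 (SE 0.64) against WT at day 3, and 1.25 and 1.30 with normexp background correction. Both passed the threshold, and each call was lost in 12 of 23 alternatives. Rasl10b entered the test only through smSocs3-KO at day 3, the group where it is high, so these values are descriptions. In the mean challenge response, Rap1b (0.54) and Rap2b (0.77), of the Rap branch that controls cell adhesion, and Rap1gds1 (0.53), which encodes an exchange factor and chaperone of small GTPases, rose, and Rasl11a (-1.22) and Rasl12 (-0.73) fell, with limma adjusted p from 0.0162 to 0.0385. The calls of Rap2b, Rasl11a and Rasl12 were lost in 10, 11 and 13 of 23 alternatives. Rap1a (0.23), Rap2a (0.32), Rasd2 (-0.25), Rasl10a (-0.35), Rasl11b (-0.29) and Rergl (-0.56) did not pass the threshold. Beside Diras2, whose choice rests on the same arrays, 1 of 12 genes was called higher and 0 lower under the smSocs3-KO label, and of all genes 1.57% were called higher and 0.839% lower. The gene called higher is Rasl10b, so nothing is read from this count.

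Th was the noradrenergic marker among the members that was measured above background, and it was not called in any comparison. Th read -0.22, -0.40 and -0.91 in WT before challenge and -0.91, -0.60 and -1.07 at day 3. Under the smSocs3-KO label it read -0.78, -1.30 and -1.54 before and -1.28, -1.34 and -1.53 at day 3. The times overlapped under both labels. The log2 challenge response of Th was -0.35 (95% interval -0.88 to 0.18, limma adjusted p = 0.370) in WT and -0.18 (-0.71 to 0.35, 0.654) under the smSocs3-KO label, so a fall as large as that of Gprasp2 lay outside both intervals.

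Th was lower under the smSocs3-KO label at both times, by -0.70 (95% interval -1.23 to -0.17) before challenge and by -0.52 (-1.06 to 0.01) at day 3. The limma adjusted p was 0.9999 and 0.306, and neither passed. On slide 1, the single smSocs3-KO array before challenge was at -0.78, within the WT range of -0.91 to -0.22, and the smSocs3-KO mean before challenge was -1.42 on slide 2. A block for the slide changed these values to -0.27 and 0.12, so that its direction at day 3 depended on the slide.

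Sox10 was steady. The signals were -2.09, -1.81 and -2.47 in WT before challenge, -2.22, -2.43 and -1.83 at day 3, -1.78, -2.17 and -2.44 in smSocs3-KO before challenge and -2.13, -2.16 and -2.16 at day 3. All groups overlapped. Its log2 challenge response was -0.04 (95% interval -0.54 to 0.47) in WT and -0.02 (-0.52 to 0.49) under the smSocs3-KO label, with limma adjusted p of 0.926 and 0.968. The genotype differences were -0.01 (-0.51 to 0.50) before challenge and 0.02 (-0.49 to 0.52) at day 3, and a block for the slide moved them to 0.34 and 0.54, neither of which passed.

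Dbh, Nefl and Nefm were not well above background on any of the 12 arrays, and no fold is given for them. Their log2 signals lay between -7.25 and -6.25 for Dbh, -7.21 and -5.85 for Nefl, and -6.99 and -5.30 for Nefm, each below the dimmest signals called well above background, which were between -5.14 and -4.00 depending on the array. Nefm was read by 10 spots on each array and the others by 1. A change of these transcripts below background would not have been seen.

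In the wider lists of nerve genes, counts of calls stand beside shares of 4.67% of all genes called in WT and 2.41% under the smSocs3-KO label, so that 0 calls in a list of 17 to 24 genes is near the background. An unadjusted p under 0.05 was common: 6048 of the 22758 genes had it in WT, 5526 under the smSocs3-KO label and 9032 in the mean response. The counts at that p in the lists are to be read beside these, and nothing is read from them alone. In the noradrenergic list, 17 of 24 genes were tested, Dbh, Slc18a1, Insm1 and Chrna3 were not well above background on any array, and limma called 0 in either genotype. The unadjusted p was under 0.05 for 2 of the 17 in WT and for 4 under the smSocs3-KO label. In the mean response Gch1, which makes the cofactor of tyrosine hydroxylase, rose by 0.99 (limma adjusted p = 0.0152) on its brighter probe, whereas its other probe was at -0.01 and the mean of both, at 0.49, did not pass. Slc6a2, the noradrenaline transporter of sympathetic endings, fell by 0.83 in the mean response (limma adjusted p = 0.0344), a call held in 12 of 23 alternatives. With normexp background correction it was at -0.47. It was at -1.09 in WT (limma adjusted p = 0.0835) and -0.57 under the smSocs3-KO label (0.319), and like Th it passed under neither label. Hand2 (-0.23) and Maoa (-0.36) did not pass. The list median was -0.16 in WT and -0.16 under the smSocs3-KO label. The summed signal of the 17 genes, on the log2 scale, was between 2.46 and 2.90 before and between 2.38 and 2.68 after challenge in WT, and between 2.40 and 2.66 before and between 2.64 and 3.06 after it under the smSocs3-KO label.

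Of 24 tested Schwann cell genes, limma called 0 in either genotype, with an unadjusted p under 0.05 for 6 in WT and for 1 under the smSocs3-KO label. Erbb3, Foxd3 and Sox2 were not well above background on any array. Kcna1, a potassium channel of myelinated axons, fell by 1.53 in the mean response (limma adjusted p = 0.0128). Pmp22 (0.08), Ncam1 (-0.55) and Dhh (-0.03) did not pass in the mean response. The list median was -0.32 in WT, with 20 of 24 genes below 0, and -0.03 under the smSocs3-KO label, with 15 of 24 below 0, against -0.04 and -0.11 for all genes. The summed signal of the list lay between 6.06 and 6.60 over the 12 arrays with all groups overlapping. This sum follows mostly its brightest probes, those of Ncam1 (mean log2 signal 4.98) and Pmp22 (4.89), and not the list as a whole. Of 21 tested pan-neuronal and synaptic genes, limma called 0 in any comparison, with an unadjusted p under 0.05 for 3 in WT and for 7 in the mean response. Their median was -0.33 in WT and -0.35 under the smSocs3-KO label, with 18 and 19 of 21 below 0. Cplx2 (-0.44, limma adjusted p = 0.121) and Snap25 (-0.32, 0.397), which serve the release of synaptic vesicles, did not pass in the mean response.

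**Figure D3:**
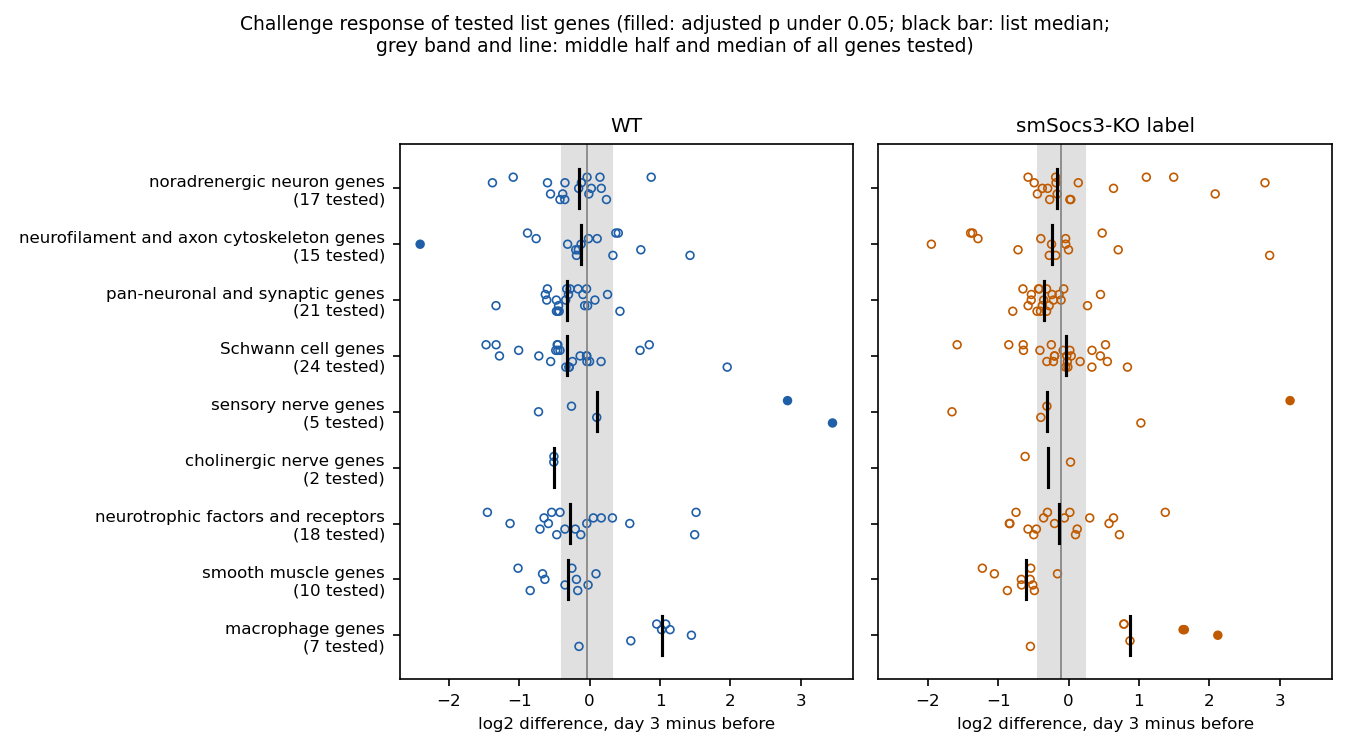
Challenge response (horizontal axis, log2 difference of day 3 minus before) of the tested genes of 9 lists in WT and under the smSocs3-KO label. Each circle is 1 gene, filled where the limma adjusted p was under 0.05, with the list median as a black bar and the median and quartiles of all genes as a grey line and band, and the filled circles are Mtap1b, Calca and Tac1 in WT, and Calca and 3 macrophage genes under the smSocs3-KO label. Of these, Mtap1b and Tac1 in WT and Calca under the smSocs3-KO label are descriptions with no test.

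In the axon cytoskeleton list, 15 of 20 genes on the array were tested. The median of their mean responses was -0.14, with 11 of 15 below 0. Beside Mtap1b, Mapt and Mtap1a were called lower and Tubb3 higher, where 10.4% of all genes were called lower and 12.5% higher. Tubb3, a neuronal tubulin, ran against Mtap1b, with a rise of 2.14 in the mean response (SE 0.54, limma adjusted p = 0.0201), which was called in 23 of 23 alternatives. Tubb3 passed under neither label alone. Its day 3 signals were -4.45 to -0.59 in WT and -0.76 to 0.14 under the smSocs3-KO label, against -4.07 to -3.03 and -3.56 to -2.97 before challenge, so in WT the times overlapped. The brightest of the list, Dpysl3, was at -0.14 in the mean response and did not pass, whereas its dimmer probe was at 0.72 (limma adjusted p = 0.0154).

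Of 5 tested sensory nerve genes, Tac1 and Calca were called higher with challenge in WT and Calca under the smSocs3-KO label, both from signals at background. Of all genes, 3.5% were called higher in WT and 1.57% under the smSocs3-KO label. Both genes entered the test only through a group where they are high, as given below, so nothing is read from these counts. In the mean response 3 of the 5 were below 0 and not called, among them Scn10a (-1.19) and P2rx3 (-0.28), and the list median was -0.15. Tac1, which encodes substance P, was not well above background on any array before challenge or in smSocs3-KO at day 3, and was on 3 of 3 in WT at day 3. It was at least 2.48-fold higher at day 3 than before in WT, and at least 3.60-fold higher in WT than in smSocs3-KO at day 3. Tac1 entered the test only through WT at day 3, the group where it is high, so both values are descriptions with no test. Each bound sets the mean of the bright group against the dimmest signal called well above background on the arrays of the dim group. Calca, which encodes the vasodilator CGRP, was at least 2.12-fold higher at day 3 in WT, where 2 of 3 arrays at day 3 measured it. The limma adjusted p of 0.0320 in WT belongs to its log2 difference of 2.81, which rests on signals at background, and not to this bound. That call was lost in 10 of 23 alternatives, with an adjusted p of up to 0.212, and the difference was 0.53 with normexp background correction. Under the smSocs3-KO label Calca was well above background on 1 of 3 arrays before and 3 of 3 at day 3. Its log2 difference there, 3.15, rests on signals at background and was 0.97 with normexp background correction. Calca entered the test only through smSocs3-KO at day 3, so that difference is also a description. Both genes are also expressed outside nerves, and their source was not tested.

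Of 18 tested neurotrophic factors and receptors, limma called 0 in either challenge response on the brightest probe, with an unadjusted p under 0.05 for 5 in WT and for 3 under the smSocs3-KO label. A dimmer Ntrk3 probe was at -1.64 in WT (limma adjusted p = 0.0396). In the mean response Cntf, the ciliary neurotrophic factor, rose by 0.57 (limma adjusted p = 0.0123), and Ntrk3, the receptor of neurotrophin-3, fell by 1.10 (0.0189) and Sort1 by 0.71 (0.0275). Gfra1, a receptor subunit of glial cell line-derived neurotrophic factor, rose by 1.44 (0.0229), and it is named here after its values were seen. Of 11 tested adrenergic, neuropeptide Y and purine receptors, limma called 0 in any comparison, with an unadjusted p under 0.05 for 2 in the mean response, where Npy1r was at -0.31 and P2rx1 at -0.21. Of 2 tested cholinergic genes 0 were called, and 0 had an unadjusted p under 0.05. Pnmt, the marker of the adrenal medulla, was at -0.06 in WT and -0.27 under the smSocs3-KO label, and 6 of 10 adrenal cortex genes were not well above background on any array.

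The lists of other cell types of the wall differed in how far they moved with the groups. In the mean response 1 of 8 fibroblast and 1 of 8 endothelial genes were called, both higher, and 0 of 7 adipocyte genes. Of 10 smooth muscle genes, 3 were lower in the mean response, in which 10.4% of all genes were called lower and 12.5% higher, with Myh11, the smooth muscle myosin, at -1.12 (limma adjusted p = 0.0115), and their summed signal was between 11.28 and 11.43 before and between 10.88 and 11.28 after challenge in WT, and between 11.10 and 11.69 before and between 10.58 and 10.84 after it under the smSocs3-KO label. Of 7 macrophage genes, 5 were called higher in the mean response. Their median challenge response was 1.02 in WT and 0.87 under the smSocs3-KO label, with 6 of 7 above 0 under each. The summed signal of these 7 genes, which follows mostly the brightest probes, overlapped between all groups, from 6.99 to 8.24. The summed signal of 8 mesothelial genes was 1.53 to 4.58 on WT arrays and 4.87 to 6.04 on arrays labelled smSocs3-KO, although limma called 0 between the labels. The unadjusted p was under 0.05 for 6 of 8 before challenge and 7 of 8 at day 3, and for 995 and 3783 of all 22758 genes. The part of these in the values of Mtap1b, Gprasp2 and Diras2 was not tested.

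Taking the members by comparison, 2 of the 5 tested (Mtap1b and Gprasp2) were called in the WT challenge response, in which 4.67% of all genes were called, 3.5% higher and 1.17% lower. Under the smSocs3-KO label 2 were called (Gprasp2 and Diras2), against 2.41% of all genes. Since the comparisons chose these genes, nothing is read from the counts beyond Gprasp2 in WT. Between the labels, 0 members were called before challenge, where 0.0308% of genes were called and 995 had an unadjusted p under 0.05, and 1 (Diras2) at day 3, where 1.09% were. For the difference of the challenge responses 0 members and 0.0% of genes were called, with 1259 genes at an unadjusted p under 0.05. At a second threshold (p under 0.01 and more than 4-fold), of a kind used for a network over several combined datasets, 2 members passed in WT (1.25% of all genes), 1 under the smSocs3-KO label (1.56%), 0 before challenge (0.237%) and 1 at day 3 (1.09%).

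The members also differed in how they varied from array to array. Mtap1b and Gprasp2 had a Pearson r of 0.797 and a Spearman rho of 0.650 over the 12 arrays, which share groups and slides, and neither was close to Diras2 (r of 0.262 and 0.308) or to Sox10 (0.183 and 0.229). Th had its highest r with Diras2, 0.530. In all, 1414 genes (6.21%) were lower at day 3 with no overlap under both labels, as Mtap1b and Gprasp2 were, and the groups did not overlap for 35.3% of all genes in WT and for 29.0% under the smSocs3-KO label.

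The genes most like each by Pearson r over the 12 arrays were other genes with no nerve marker among them. For Mtap1b they were Trim23 (0.938), Poc1b (0.929), a centriole gene, and Mreg (0.911). Their own WT differences were -0.53, -0.23 and -1.29, smaller than that of Mtap1b. For Gprasp2 they were Caprin2 (0.981), Chadl (0.977) and 6720401G13Rik (0.975), with WT differences of -0.49, -0.79 and -1.39 and smSocs3-KO differences of -0.59 for Caprin2 and -1.46 for 6720401G13Rik. For Diras2 they were Terf1 (0.965), a telomere-binding protein gene, Ano1 (0.934), a calcium-activated chloride channel of smooth muscle, and Sms (0.917), the spermine synthase gene. At day 3 the smSocs3-KO minus WT differences of these were -0.62, -1.38 and -0.66, with the sign of Diras2. These genes were picked out of all genes tested for their likeness, so the values are descriptions.

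**Figure D4:**
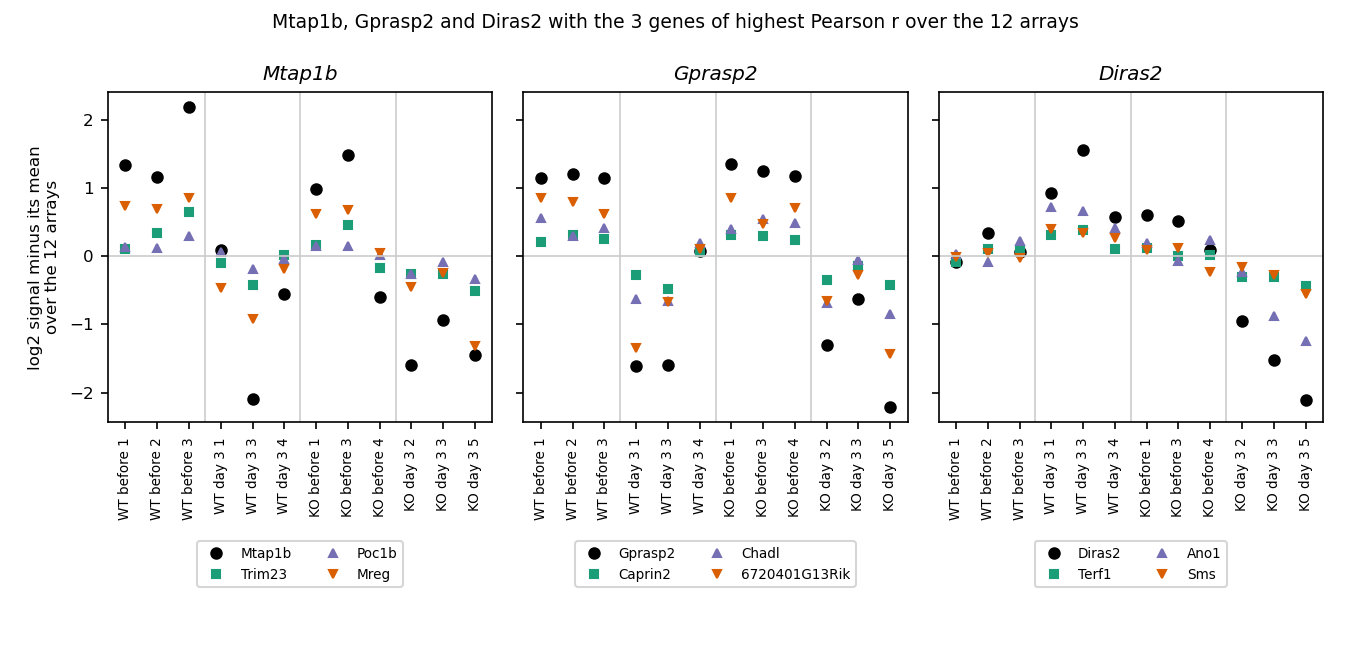
Log2 signal minus its mean over the 12 arrays (vertical axis) of Mtap1b, Gprasp2 and Diras2 (black circles) and of the 3 genes with the highest Pearson r with each (coloured symbols), by array in the order of groups and replicate numbers. The like genes rise and fall on the same arrays as the member with a smaller range, and replicate 4 of WT at day 3 is the highest day 3 array for Gprasp2 and its 3 like genes.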

How the data were processed

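Total RNA of mouse aorta was labelled with Cy3 and hybridised to 12 one-colour 60-mer microarrays. The authors deposited scanner files with a processed signal intensity per spot, which Feature Extraction makes by subtracting the background and its spatial trend (version 9.5.1.1 in the submitters' processing notes, 10.7.1.1 in the file headers). They also deposited a table of intensities on a linear scale, whose columns had 1 common median and kept the rank order of the scanner values, and it was used on the log2 scale as an alternative. A spot was well above background where the software marked it so. Outlier spots were left out and control spots were not used. The spots of a probe were averaged, the 75th percentile of the log2 intensities over all spots other than controls was subtracted on each array, and probes with that mark in all 3 replicates of some group were retained, 32278 of 55681. The brightest retained probe represented its gene. Means of the 4 groups were fitted with limma 3.58.1 in R 4.3.3 over all 22758 genes, with moderated variances and Benjamini-Hochberg adjustment over all of them at 0.05, after the fit had been tested on simulated data. Between 55.4% and 61.2% of spots were well above background on an array and 0 were saturated. The 3 arrays per group limit the precision, and since nothing in the labels says that they came from separate animals, p-values measure the spread between these samples.

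The members, the gene lists and the comparisons were chosen with earlier results of these data known. Named were all members, every gene of the 3 families, up to 4 genes of each other list (those called, then the brightest) and the 3 genes most like each of Mtap1b, Gprasp2 and Diras2. Alternatives covered the background correction (normexp, offset 50), quantile normalization, the deposited table, the filter, the choice of probe, the moderation of variances, the arrays in the fit, slide, replicate number and each array left out. The 75th percentile over probe averages and the fit of every kept probe were chosen after seeing the data. Gene names are those of the array design. Some genes of the lists count in the list totals and are not reported here by name. Replicate numbers were not taken to pair the groups: the labels do not say that they do, and arrays of the same number deviated from their group means with a correlation of -0.40 to 0.46 over genes.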

Additional observations from a re-analysis of the deposited data

Results flagged for a closer look

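Diras2 responded to challenge differently under the 2 genotype labels: the log2 response under the smSocs3-KO label minus that in WT was -2.85 (SE 0.45), with groups that did not overlap under either label and opposite directions. Diras2 was chosen by its values on these day 3 arrays, so the difference is a description. Pi16, a gene of adventitial fibroblasts, had the reverse difference, 1.63 (SE 0.48), with a limma adjusted p of 0.773, which did not pass.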

How the results depend on the processing

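Over 24 alternatives, 12 of which left out 1 array, the challenge responses of Mtap1b and Gprasp2 and the values of Diras2 at day 3 kept their direction in each. The WT challenge response counted 2 members called, and 0 with no filter on dim probes, 0 with only the compared groups, 0 with the replicate block and 1 with the 75th percentile over probe averages, and between 0 and 3 with 1 array left out. The smSocs3-KO challenge response counted 2, and 0 with the slide as a fixed block, 0 with the replicate block and between 0 and 2 with 1 array left out. The genotype difference at day 3 counted 1 (Diras2), and 0 with only the compared groups, with the slide as a fixed or as a random block and with the replicate block, and 1 with any array left out. The mean challenge response counted 2, and 1 with the replicate block. The genotype difference before challenge and the interaction counted 0 under all that were run, and with only the compared groups the mean response and the interaction could not be fitted. In all genes, the WT challenge response counted 1063 calls, and 0 with the replicate block, whose pairing the labels do not give, 0 with only the compared groups and 10 with no filter, which tests 34797 genes. It counted 3665 without replicate 4 of WT at day 3, and 0 or 3 without any 1 of the WT arrays before challenge, replicates 1 and 3 of WT at day 3 or replicate 4 of smSocs3-KO before challenge. It also counted 614 with quantile normalization and with the authors' processed values, 1786 with a variance trend and robust moderation, and 2296 and 2039 with the slide as a fixed and as a random block. The smSocs3-KO challenge response counted 548 genes, and 831 with normexp background correction, 176 with no filter, 344 with only the compared groups, 50 and 284 with the slide as a fixed and as a random block, 1 with the replicate block and 38 to 1948 with 1 array left out. The genotype difference at day 3 counted 247 genes, and 70 with no filter, 57 with only the compared groups, 0 and 1 with the slide as a fixed and as a random block, 2 with the replicate block and 43 to 604 with 1 array left out. The genotype difference before challenge counted 7 genes, and 0 to 14 over the alternatives. The mean response counted 5210, and 3358 with no filter, 862 with the replicate block and 2518 to 6539 with 1 array left out. Of 123 single results, 22 turned their sign under at least 1 alternative, and 0 of these were called. In 3 the turned value also lay more than 1 SD between replicates from the original: the genotype difference of Th at day 3 was 0.12 and that of Sox10 before challenge 0.34 with the slide as a fixed block, and Pmp22 in the mean response was -0.11 with the mean of kept probes. The response of Calca in WT was 0.53 and that of Tac1 0.74 with normexp background correction, where an offset is added to dim signals. Of 42 single results called, 37 lost the call under at least 1 alternative, and 15 others gained one; the cause was not tested. Signals near background limit what could be seen of Dbh, Nefl, Nefm and other dim nerve genes.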
